A study of Homo sapiens with 6 samples.

Results

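The genes described here are the SLC25 mitochondrial carriers, taken as every gene symbol of the form SLC25A followed by a number except the pseudoautosomal SLC25A6. The rule found 45 genes among 19876 symbols, and 40 of them had enough reads to test. Their transcripts were sequenced in A549 cells, a human lung adenocarcinoma line that the labels give as wild type, cultured in serum-containing medium with rhTR11B or with phosphate-buffered saline (PBS) as the negative control. The labels leave rhTR11B unexplained and state neither dose nor time; TR11B is used for TNFRSF11B, also called osteoprotegerin, which binds TNF-family ligands as a soluble decoy. There were 3 libraries per group, numbered as biological replicates. The labels do not tie them to separate cultures, and the p-values therefore describe library-to-library spread, which may be technical. The comparison asked how carrier transcripts differ between cells given rhTR11B and cells given PBS.

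Carriers of this family sit almost all in the inner mitochondrial membrane, which is closed to most charged metabolites, and each moves its own substrate between cytosol and matrix, often by exchange of one molecule for another. ADP/ATP carriers send out the ATP made in the matrix, the phosphate carrier feeds ATP synthase, and other members pass citrate, malate, amino acids, iron, nucleotides and cofactors. The proteins are encoded in the nucleus, most are made without a cleaved targeting sequence, and those of the inner membrane are inserted through the TOM pore, small TIM chaperones and the TIM22 complex.

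The libraries held 36315751 to 38148838 counts. On the first principal component, with 36.4% of the variance, the PBS libraries lay between -18.4 and -5.96, and rhTR11B replicates 1, 2 and 3 at 2.66, 8.63 and 25.7. The 13 mitochondrially encoded genes took 6.63% to 7.71% of the counts with PBS and 7.88% to 10.4% with rhTR11B, highest in rhTR11B replicate 3, and 79 genes of cytosolic ribosomal proteins took 4.78% to 4.92% with PBS and 3.68% to 4.37% with rhTR11B. The part of these shifts in the results was not tested. Of the epithelial genes checked, the keratins KRT8 and KRT18 were high, at 467 and 465 FPKM with PBS (FPKM are fragments scaled to gene length and library size), while EPCAM, CDH1 and KRT19 had 0 to 10 counts in any library. Of the marker lists for other cell types, 5 fibroblast genes summed to 0.481 to 0.668 FPKM with PBS and 0.774 to 1.25 with rhTR11B, most of it COL1A1, 3 endothelial genes to 0.0284 to 0.0931 and 0.0427 to 0.0591, and the blood gene CD14 to 0.112 to 0.245 and 0.115 to 0.352.

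Levels per length spanned several orders of magnitude within the family. SLC25A5, the main ADP/ATP exchanger of proliferating cells, stood at 391, 403 and 403 FPKM in the PBS libraries and 373, 351 and 336 with rhTR11B. It alone made up 40.5% to 41.3% of the family's summed FPKM with PBS and 38.9% to 40.3% with rhTR11B. SLC25A39, which is needed for glutathione import, followed with 98.2, 90.3 and 99.3 FPKM with PBS and 91.4, 92.3 and 90.7 with rhTR11B. The phosphate carrier SLC25A3 had 89.3, 93.3 and 92.4 FPKM with PBS and 83.8, 82.4 and 74.7 with rhTR11B, so that its PBS values overlapped those of SLC25A39. The citrate carrier SLC25A1 came next, with 77.4, 75.7 and 80.3 FPKM with PBS and 72.7, 72.6 and 66.9 with rhTR11B, below SLC25A3 in each library. The aspartate/glutamate carrier SLC25A13 (26.9 ± 0.763 FPKM with PBS, SD, n = 3) and the calcium-regulated ATP-Mg/phosphate carrier SLC25A23 (24.5 ± 0.539) followed. Those 6 genes held 71.5% to 73.8% of the summed FPKM in every library. By counts, SLC25A3 was above SLC25A5 in each library (21077 against 19013 in PBS replicate 1). The lengths behind their FPKM were 6343 and 1307 bases, so the order and these shares depend on the lengths used. Over all libraries 17 members had a mean above 10 FPKM, 20 lay between 1 and 10, and 8 were below 1, with a median of 6.45.

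**Figure D1:**
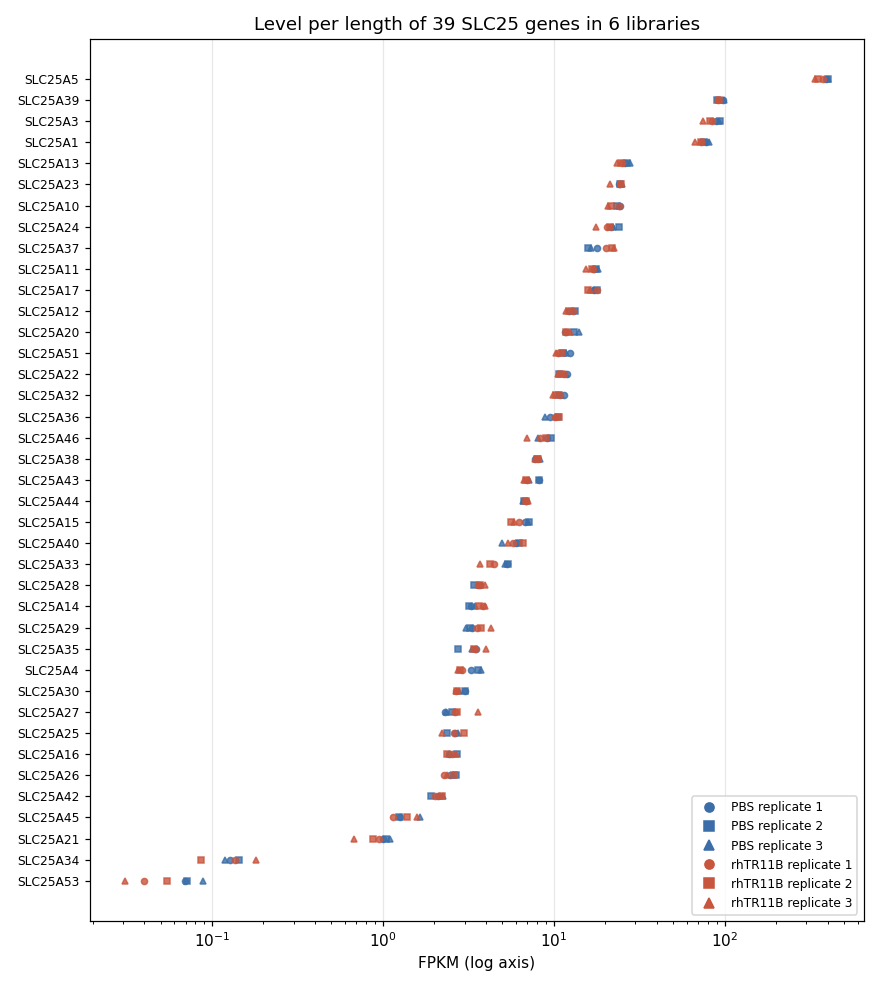
Level per gene length (FPKM, log axis) of 39 tested SLC25 genes, ordered by their mean, with 1 point per library. SLC25A5 stands at 336 to 403 FPKM, above all others, and SLC25A34 and SLC25A53 lie lowest.

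The 5 members not tested were close to the detection limit, where a count of 0 allows up to 3 counts. SLC25A18, a glutamate carrier, had 2 counts in PBS replicate 1 and 0 in every other library. For SLC25A2, an ornithine carrier, the counts were 0, 1 and 1 (PBS) and 4, 0 and 0 (rhTR11B). SLC25A41 was seen with 1 to 7 counts per library, SLC25A47 with 1 count in all, in rhTR11B replicate 1, and SLC25A52, which resembles the NAD carrier SLC25A51, with 0 to 4. No fold change is given for them.

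With rhTR11B, 1 carrier gene rose and 1 fell. The iron importer SLC25A37 was 1.31-fold its PBS level, and the pyrimidine nucleotide carrier SLC25A33 was 0.789 of its PBS level. By the quasi-likelihood test of edgeR, with p-values adjusted by Benjamini-Hochberg over 13567 genes, these 2 of 40 members (5%) had an adjusted p under 0.05, against a background of 3.6% of all tested genes (2.92% higher and 0.678% lower), so the share of members that passed was near that of all genes. The other 38 members did not pass. At an unadjusted p under 0.05 stood 14 members (35%), 4 higher and 10 lower, against 24.2% of all genes, of which 13.8% higher and 10.3% lower. The median log2 fold change (rhTR11B over PBS) was -0.06 for the 40 members, with 14 positive and 26 negative, and 0.00 for all tested genes. In 19 members the log2 fold change was less than 0.1 in size.

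**Figure D2:**
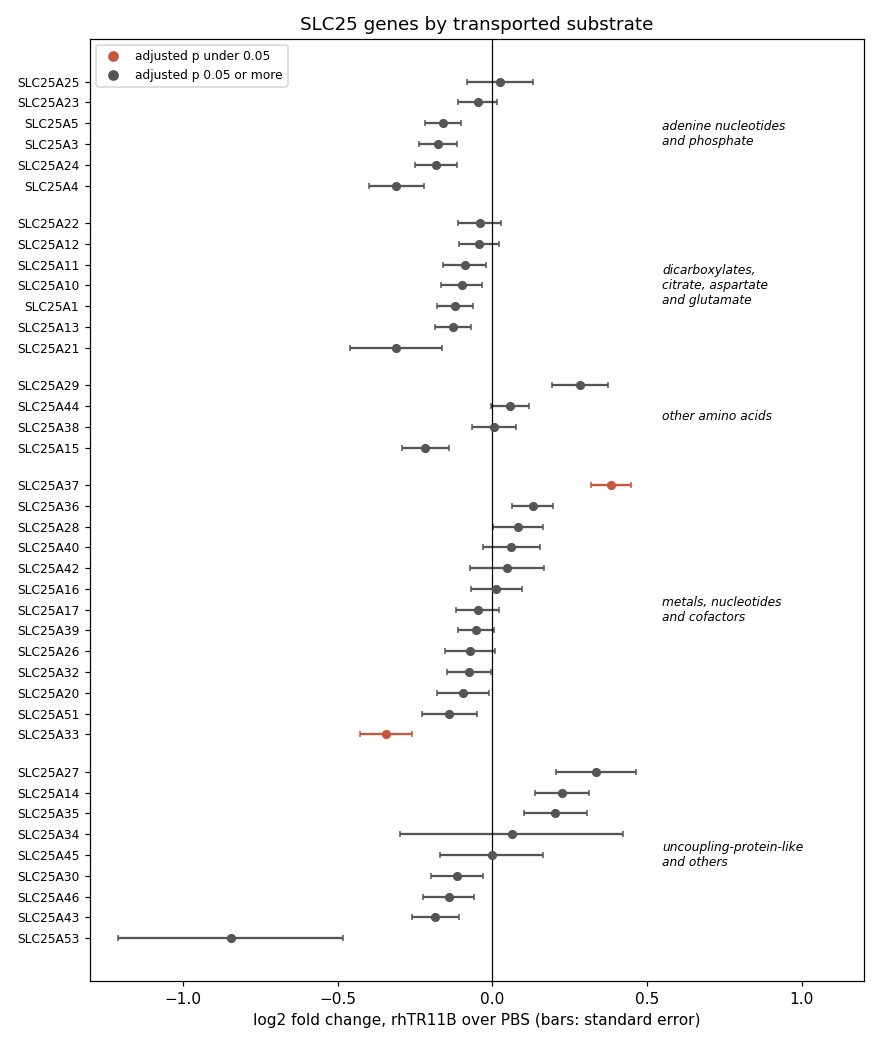
Log2 fold change of 39 tested SLC25 genes, rhTR11B over PBS, grouped by substrate, with bars of 1 standard error. SLC25A37 at 0.38 and SLC25A33 at -0.34 are the only genes drawn that are past the threshold, and all 7 tested carriers of dicarboxylates, citrate, aspartate and glutamate lie below 0.

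Among the iron carriers, SLC25A37 (mitoferrin-1, chromosome 8, 23528956 to 23575463 on GRCh38.p14) brings iron to the matrix for heme and iron-sulfur cluster synthesis. It stood at 142, 126 and 133 CPM (counts scaled to library size) with PBS and at 164, 174 and 185 CPM with rhTR11B. Every rhTR11B library lay above every PBS library. The PBS mean of 134 ± 8.34 CPM compared with 174 ± 10.5 CPM (log2 fold change of 0.38, SE 0.06, adjusted p = 0.00556, edgeR). Without PBS replicate 2 the adjusted p was 0.0709 and without PBS replicate 3 it was 0.0978, at log2 fold changes of 0.34 and 0.38. It was 0.245 with limma on log2(FPKM + 1) without a filter on low values, where no gene of the table passed. Leaving out any 1 of the other 4 libraries kept it past the threshold. Its relative SLC25A28 (mitoferrin-2, chromosome 10), which is expressed more widely across tissues, had 19.5, 18.0 and 19.4 CPM with PBS and 19.4, 19.5 and 21.4 with rhTR11B. Those groups overlapped (log2 fold change 0.08, SE 0.08, adjusted p = 0.556). Per length SLC25A37 was the more abundant of the pair, and SLC25A28 made up 17.1%, 17.7% and 18.0% of their summed FPKM with PBS and 15.1%, 14.4% and 14.8% with rhTR11B. None of the 3 rhTR11B shares reached the PBS range. The length behind the SLC25A28 FPKM was 5323 bases, while its GENCODE exons cover 1755. The size of its share therefore depends on the length used.

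Of 12 tested mitochondrial iron and cofactor users, edgeR called 0 and DESeq2 called 1 higher and 1 lower. Over all 13567 tested genes DESeq2 called 761 higher and 346 lower. At an unadjusted p under 0.05 by edgeR, 1 was higher and 2 were lower, against 13.8% and 10.3% of all tested genes. Their median log2 fold change was -0.09. The values nearest to passing were CPT1A, which makes acylcarnitines for import (0.22, adjusted p = 0.0611), and the folate enzyme MTHFD2 (-0.22, 0.0713). Next was ferrochelatase FECH, which inserts iron to form heme (-0.17, 0.121).

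SLC25A33 (chromosome 1, 9539465 to 9585173) and SLC25A36 (chromosome 3, 140941836 to 140980995) carry pyrimidine nucleotides into the matrix, where they serve mitochondrial DNA and RNA synthesis. Their promoters are shown because the pair's balance moved furthest of all pairs compared here: the 250 bases before the RefSeq start, GRCh38.p14, plus strand, 5′ to 3′, at chr1:9539215-9539464 and chr3:140941586-140941835. Capitals mark matches on either strand to any of the motifs searched. These were the palindrome of the factor NRF1, the E-box CACGTG and the ETS motif with the letters CCGGAAG. The core promoter motifs were the CCAAT box, the GC box GGGCGG and the TATA box with the letters TATAAA. The last was the cyclic AMP response element with the letters TGACGTCA. TGACGTCA was added to the motifs after the sequences had been seen.
SLC25A33: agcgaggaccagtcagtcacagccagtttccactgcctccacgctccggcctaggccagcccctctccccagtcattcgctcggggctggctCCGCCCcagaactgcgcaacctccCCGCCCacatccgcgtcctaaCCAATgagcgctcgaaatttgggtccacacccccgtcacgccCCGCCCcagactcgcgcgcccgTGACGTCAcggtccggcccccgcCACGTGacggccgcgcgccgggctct
SLC25A36: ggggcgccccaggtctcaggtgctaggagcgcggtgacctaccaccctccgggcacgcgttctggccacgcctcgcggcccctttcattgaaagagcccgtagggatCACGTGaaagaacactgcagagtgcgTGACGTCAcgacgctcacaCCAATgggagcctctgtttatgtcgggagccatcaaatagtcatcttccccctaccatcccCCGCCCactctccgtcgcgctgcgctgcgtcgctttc
Both windows hold 1 CACGTG, 1 TGACGTCA and 1 CCAAT, and they hold 3 and 1 GC boxes. TGACGTCA was found in 3 of 37 members with a promoter window (8.11%; the third was SLC25A25), in 3.37% of tested genes with a window and in 1.65% of all 35116 windows. CACGTG was found in 18.9% of members, 10.9% of tested genes and 6.34% of all windows. GC boxes and CCAAT were common everywhere, in 75.7% and 51.4% of members, in 74.5% and 41.3% of tested genes, and in 42.6% and 32.0% of all windows. A match is a description of the letters and not a bound site.

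SLC25A33 had 20.6, 20.6 and 20.1 CPM with PBS and 17.5, 16.2 and 14.6 with rhTR11B. All rhTR11B libraries were below all PBS libraries, replicate 3 lowest. The PBS mean of 20.4 ± 0.284 CPM compared with 16.1 ± 1.42 CPM (log2 fold change of -0.34, SE 0.08, adjusted p = 0.0350, edgeR). With 1 library left out it passed only without rhTR11B replicate 1 (adjusted p = 0.0138), and not without PBS replicates 1, 2 or 3 (0.0799, 0.167 and 0.153) or rhTR11B replicates 2 or 3 (0.0594 and 0.0662), with log2 fold changes from -0.40 to -0.28. It did not pass among genes with a mean of at least 5 CPM (0.0515) or with limma on log2(FPKM + 1), the same without a filter, or log2(FPKM + 0.1) (0.0670, 0.245 and 0.0675). Of the 50-base windows in its GENCODE transcripts, 20.7% also occur in transcripts of other genes, 17.0% in AC135977.1, so some of its reads may be shared. SLC25A36 had 60.7, 67.6 and 57.2 CPM with PBS and 66.3, 69.0 and 68.0 with rhTR11B, and the groups overlapped (log2 fold change 0.13, SE 0.07, adjusted p = 0.239). Per length, SLC25A33 made up 36.2%, 33.8% and 37.0% of the pair's FPKM with PBS and 30.6%, 28.3% and 26.5% with rhTR11B, a mean difference of -7.21 percentage points.

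**Figure D3:**
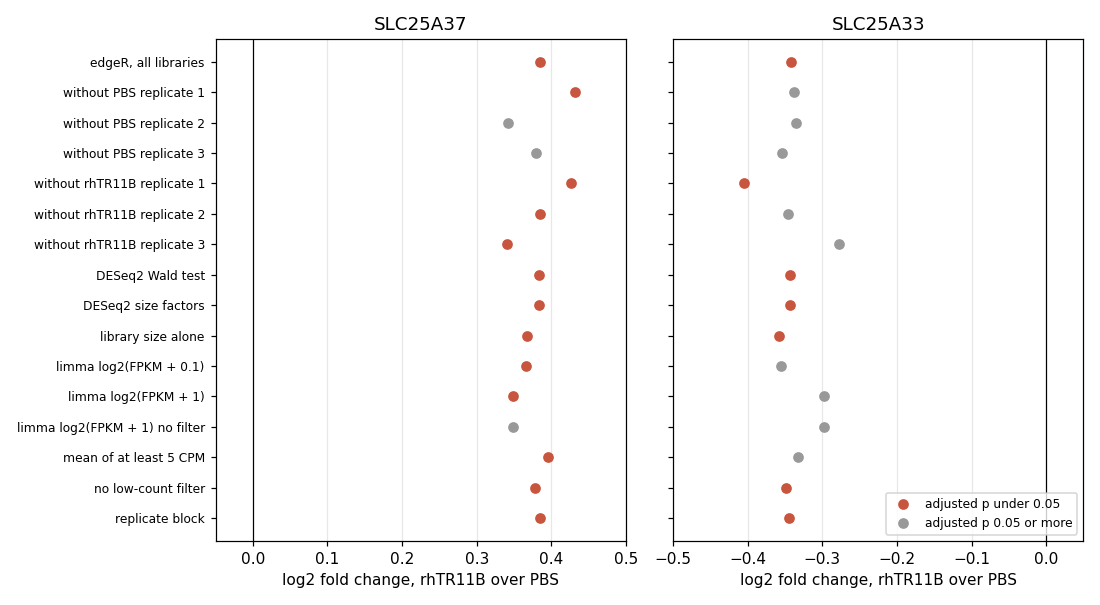
Log2 fold change (rhTR11B over PBS) of SLC25A37 and SLC25A33 with all libraries in edgeR, with each library left out, and under the other settings; red points have an adjusted p under 0.05 and grey points 0.05 or more. SLC25A37 stays between 0.34 and 0.43, SLC25A33 between -0.40 and -0.28, and the calls change while the values hold their side.

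The exchangers of adenine nucleotides and phosphate made up the highest-expressed group, and none of its 6 tested members passed; 5 had a log2 fold change below 0 and the median was -0.17. The heart- and muscle-rich ADP/ATP carrier SLC25A4 (chromosome 4, 185143266 to 185150382) and the general SLC25A5 (chromosome X, 119468444 to 119471396) do the same exchange. Their promoters are shown to set these isoforms of very unequal level side by side, at chr4:185143016-185143265 and chrX:119468194-119468443, plus strand, with capitals as above.
SLC25A4: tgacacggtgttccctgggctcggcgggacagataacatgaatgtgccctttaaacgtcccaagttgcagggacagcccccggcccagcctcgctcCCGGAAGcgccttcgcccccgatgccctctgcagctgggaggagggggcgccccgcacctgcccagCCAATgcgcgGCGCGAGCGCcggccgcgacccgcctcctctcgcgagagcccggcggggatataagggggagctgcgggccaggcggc
SLC25A5: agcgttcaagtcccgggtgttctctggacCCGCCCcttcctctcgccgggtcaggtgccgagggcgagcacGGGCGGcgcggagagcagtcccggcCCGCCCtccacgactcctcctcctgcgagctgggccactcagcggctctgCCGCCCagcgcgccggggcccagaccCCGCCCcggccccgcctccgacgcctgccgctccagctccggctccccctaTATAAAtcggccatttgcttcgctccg
The SLC25A5 window holds 5 GC boxes and 1 TATAAA and none of the other motifs, and the SLC25A4 window holds 1 each of the NRF1, ETS and CCAAT motifs and no GC box. TATAAA occurred in 8.11% of members, 7.59% of tested genes and 10.7% of all windows. The NRF1 motif occurred in 16.2%, 16.6% and 7.16%, and the ETS motif in 29.7%, 19.0% and 8.52%.

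SLC25A5 made up 99.1% ± 0.0451 of the FPKM of this pair with PBS and 99.2% ± 0.0200 with rhTR11B. SLC25A4 had 14.5, 15.7 and 16.6 CPM with PBS and 13.0, 12.3 and 12.4 with rhTR11B. Its groups did not overlap, but it missed the threshold (log2 fold change -0.31, SE 0.09, adjusted p = 0.0570, edgeR). It passed with DESeq2 (adjusted p = 0.0325), without a low-count filter (0.0249) and without rhTR11B replicate 1 (0.0459). SLC25A5 had 508, 521 and 527 CPM with PBS and 491, 455 and 447 with rhTR11B, again without overlap (log2 fold change -0.16, SE 0.06, adjusted p = 0.114). Its exons overlap SLC25A5-AS1 on the opposite strand over 227 bases, and 4.57% of its windows recur in other genes, 2.53% in the pseudogene SLC25A5P3.

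The phosphate carrier SLC25A3 (chromosome 12, 98593686 to 98606367), which also takes copper to cytochrome oxidase, had 564, 584 and 587 CPM with PBS and 535, 518 and 483 with rhTR11B. All PBS libraries were above all rhTR11B libraries (log2 fold change -0.18, SE 0.06, adjusted p = 0.0905), and DESeq2 called it (adjusted p = 0.0330). Of the ATP-Mg/phosphate carriers, which set the size of the matrix nucleotide pool, SLC25A24 had 98.9, 110 and 102 CPM with PBS and 94.2, 97.1 and 82.7 with rhTR11B (a log2 fold change of -0.18, adjusted p = 0.109), also without overlap. The groups of SLC25A23 overlapped, at 100, 101 and 105 CPM with PBS and 103, 103 and 90.9 with rhTR11B (a log2 fold change of -0.05, adjusted p = 0.695). So did those of SLC25A25, at 12.9, 11.5 and 13.6 CPM with PBS and 12.9, 14.6 and 11.2 with rhTR11B (0.02, adjusted p = 0.915).

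**Figure D4:**
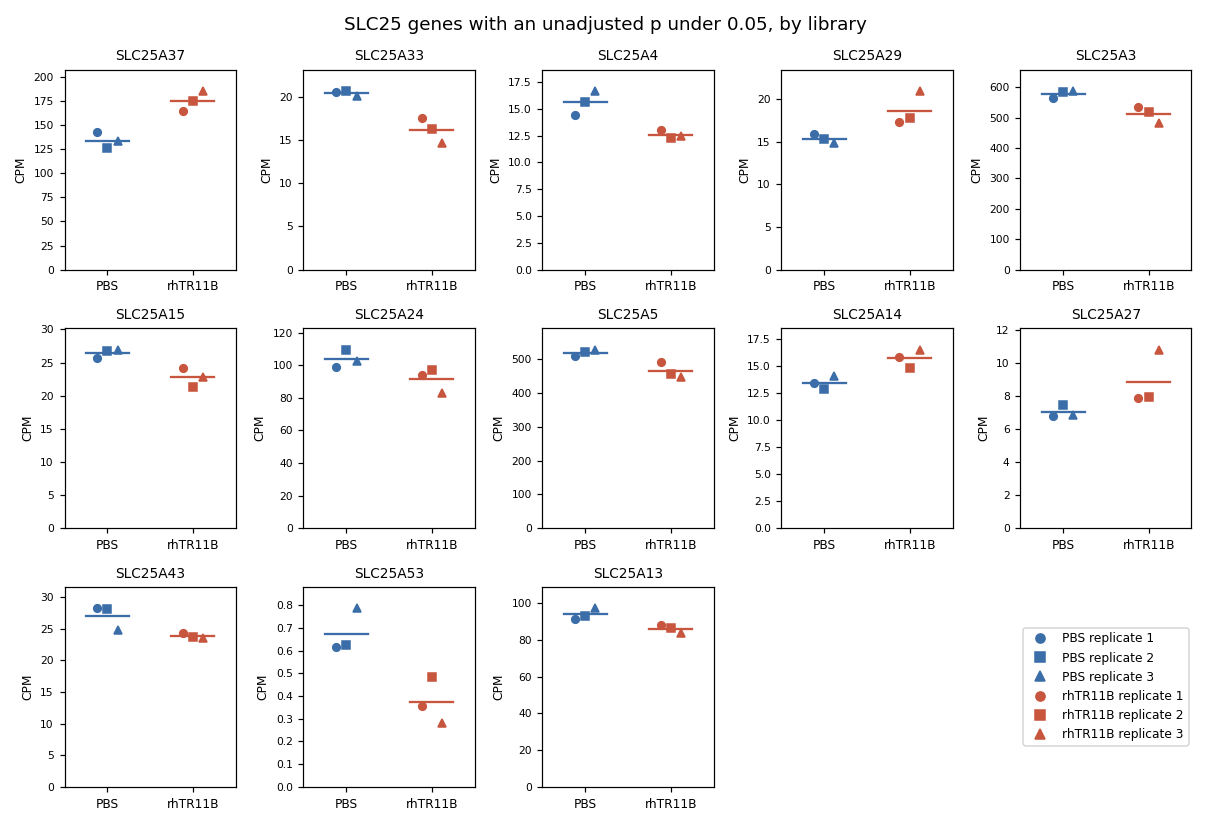
CPM in each library for 13 SLC25 genes with an unadjusted p under 0.05, ordered by p, with horizontal lines at the group means and axes from 0. The groups do not overlap in any of the 13 panels, which largely follows from choosing the genes by p. Of all tested genes, 29.1% had groups without overlap. SLC25A37, SLC25A29, SLC25A14 and SLC25A27 are higher with rhTR11B, and rhTR11B replicate 3 is often the most extreme library.

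The carriers of dicarboxylates, citrate, aspartate and glutamate, which link glycolysis, the citrate cycle and lipid synthesis, had 7 tested members, none called. All 7 log2 fold changes lay between -0.31 and -0.04, around a median of -0.10. SLC25A13 (citrin) had 91.3, 92.9 and 97.3 CPM with PBS and 88.0, 86.2 and 83.5 with rhTR11B. The groups did not overlap (log2 fold change -0.13, SE 0.06, adjusted p = 0.188), while those of its relative SLC25A12 did, at 49.0, 53.1 and 52.5 CPM with PBS and 52.4, 49.3 and 48.4 with rhTR11B (-0.04, adjusted p = 0.733). SLC25A13 made up 67.7% ± 0.764 of that pair's FPKM with PBS and 66.4% ± 0.459 with rhTR11B. SLC25A1, which exports citrate for fatty acid synthesis, had 140, 136 and 146 CPM with PBS and 133, 131 and 124 with rhTR11B, without overlap (-0.12, adjusted p = 0.209). SLC25A21, the oxodicarboxylate carrier, had 5.03, 5.17 and 5.56 CPM with PBS and 4.83, 4.37 and 3.51 with rhTR11B (-0.31, SE 0.15, adjusted p = 0.209). The groups of the other three overlapped. The dicarboxylate carrier SLC25A10 had 53.5, 51.4 and 53.3 CPM with PBS and 53.5, 47.2 and 46.9 with rhTR11B (-0.10), and 56.9% of its windows also occur in AC139530.2. The oxoglutarate/malate carrier SLC25A11 had 33.7, 34.5 and 36.1 CPM with PBS and 34.0, 33.0 and 31.1 with rhTR11B (-0.09), and the glutamate carrier SLC25A22 42.5, 37.9 and 42.5 CPM with PBS and 41.6, 39.0 and 38.7 with rhTR11B (-0.04).

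Among carriers of other amino acids none of 4 tested members passed. Their log2 fold changes were above 0 in 3 and below 0 in 1. At an unadjusted p under 0.05 stood 1 higher and 1 lower, against 13.8% and 10.3% of all tested genes. SLC25A29 carries basic amino acids such as arginine, lysine and ornithine. It had 15.9, 15.2 and 14.8 CPM with PBS and 17.3, 17.7 and 20.9 with rhTR11B, highest in replicate 3 (log2 fold change 0.28, SE 0.09, adjusted p = 0.0724, and 0.0387 without rhTR11B replicate 1). SLC25A15, the ornithine carrier of the urea cycle, had 25.7, 26.8 and 27.0 CPM with PBS and 24.2, 21.3 and 22.9 with rhTR11B (a log2 fold change of -0.22, SE 0.08, adjusted p = 0.0947). The groups of neither gene overlapped. The glycine carrier SLC25A38 and the branched-chain amino acid carrier SLC25A44 had log2 fold changes of 0.01 and 0.06 (adjusted p = 0.971 and 0.597).

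The remaining carriers of nucleotides and cofactors given here had log2 fold changes between -0.14 and 0.06, and none passed. The NAD carrier SLC25A51 had -0.14 (adjusted p = 0.353), at 13.8 ± 0.712 CPM with PBS and 12.5 ± 0.342 with rhTR11B, without overlap. Of its windows, 27.4% were shared with other genes, mostly SLC25A52. The carnitine/acylcarnitine carrier SLC25A20 had -0.09, the S-adenosylmethionine carrier SLC25A26 -0.07, SLC25A32, which carries folate, -0.08, and the peroxisomal SLC25A17 -0.05. Of the SLC25A32 windows 87.9% also occur in AC012213.5, the highest share of any member, so its reads may be divided between both. SLC25A16 and SLC25A42, linked to coenzyme A, had 0.01 and 0.05. SLC25A39 and SLC25A40, both tied to glutathione, had -0.05 and 0.06 (adjusted p = 0.618 and 0.725). SLC25A40 had 24.2, 24.99 and 20.1 CPM with PBS and 23.5, 26.6 and 22.2 with rhTR11B. It made up 5.66% ± 0.858 of their FPKM with PBS and 6.07% ± 0.559 with rhTR11B, with overlap.

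Of the carriers related to uncoupling proteins, SLC25A14 had 13.4, 12.9 and 14.1 CPM with PBS and 15.9, 14.9 and 16.6 with rhTR11B (a log2 fold change of 0.23, SE 0.09, adjusted p = 0.124). SLC25A27 had 6.76, 7.43 and 6.88 CPM with PBS and 7.85, 7.96 and 10.8 with rhTR11B (0.34, SE 0.13, adjusted p = 0.125), with replicate 3 well above the other rhTR11B libraries, and its log2 fold change was 0.17 without that library. Both genes were higher in every rhTR11B library than in any PBS library, while the third, SLC25A30, was lower without overlap (-0.11, adjusted p = 0.434). Of genes whose substrates are less clear, SLC25A43 went from 27.1 ± 1.91 to 23.8 ± 0.418 CPM (-0.18, adjusted p = 0.147), and SLC25A53 gave counts of 23, 24 and 30 (PBS) and 13, 18 and 10 (rhTR11B) (-0.85, SE 0.36, adjusted p = 0.164). SLC25A35 had 0.20 (adjusted p = 0.224), and 33.2% of its exon bases are covered by exons of RANGRF on the opposite strand. SLC25A46, which acts at the outer membrane in fission and lipid traffic, had -0.14 (adjusted p = 0.314). SLC25A34 and SLC25A45 had 0.06 and -0.00, with SE of 0.36 and 0.17.

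Shares within 9 pairs of related carriers were compared by two-sided exact permutation tests, in which 3 against 3 libraries cannot go below p = 0.1. The groups did not overlap in 5 pairs, SLC25A4/SLC25A5, SLC25A12/SLC25A13, SLC25A37/SLC25A28, SLC25A36/SLC25A33 and SLC25A24/SLC25A25, each with an exact p = 0.1 and an adjusted p = 0.18 over the 9. SLC25A25 made up 10.2% ± 1.16 of the last pair with PBS and 11.6% ± 0.584 with rhTR11B. SLC25A11 made up 42.4% ± 0.959 of its pair with SLC25A10 with PBS and 42.6% ± 1.15 with rhTR11B (exact p = 0.9). In the pairs with SLC25A18 and SLC25A2 the weaker partner stayed at or below 1.21%.

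**Figure D5:**
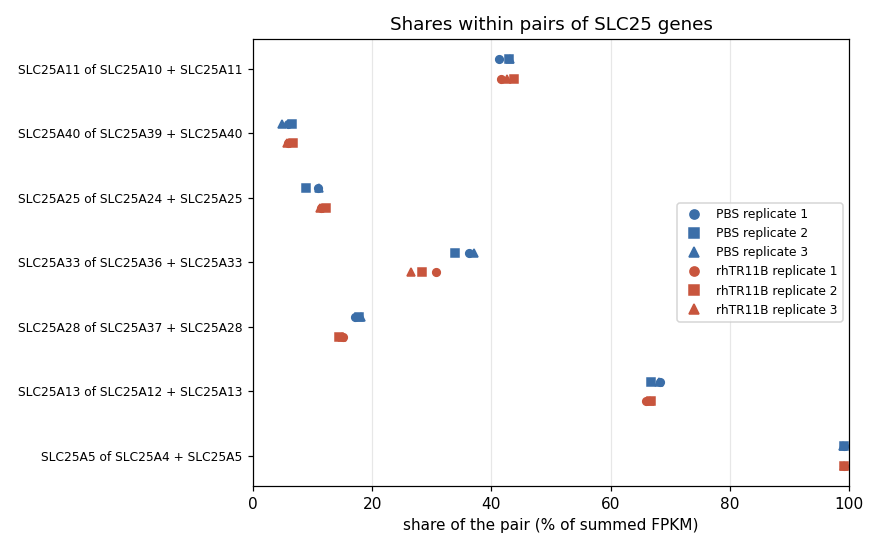
Share of the second gene in the summed FPKM of 7 pairs of related carriers, in percent, with 1 point per library. The SLC25A33 share lies at 26.5% to 30.6% with rhTR11B and 33.8% to 37.0% with PBS, the SLC25A28 share is also lower with rhTR11B, and SLC25A5 stays above 99% in every library.

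Summed over the 45 genes, the family took 0.261%, 0.264% and 0.265% of all counts in the PBS libraries and 0.2525%, 0.2505% and 0.237% in the rhTR11B libraries. The groups did not overlap, with a relative difference of -6.37%. It was -4.55% with the mitochondrially encoded genes taken out of the total, and -2.32% without SLC25A3 and SLC25A5. On the scaled CPM, the median log2 deviation of the 40 members from their PBS means was -0.01, -0.01 and 0.02 in the PBS libraries and -0.03, -0.07 and -0.10 in rhTR11B replicates 1, 2 and 3, the last being the library with the highest mitochondrial share. The median of all tested genes stayed between -0.01 and 0.01. Groups without overlap occurred in 18 of 40 members (45%), 4 higher and 14 lower, against 29.1% of all tested genes (15.1% higher and 14% lower). Without rhTR11B replicate 3 the median log2 fold change of the members was -0.05, and over all fits with 1 library left out it ran from -0.09 to -0.04. Within groups, the median coefficient of variation of a member was 4.76% with PBS and 5.77% with rhTR11B.

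Transporters of the other SLC families, which sit mostly in the plasma membrane and other organelles, leaned higher. Of 169 tested SLC and SLCO genes outside SLC25, 11 rose and 0 fell in edgeR (6.51%, against 3.6% of all genes), with a median log2 fold change of 0.18 and 151 of 169 positive. At an unadjusted p under 0.05, 76 were higher (45%, against 13.8% of all genes) and 1 lower. The 77 tested genes of mitochondrial ribosomal proteins had 0 higher and 2 lower in edgeR (2.6%), a median of -0.14 and 73 negative. At an unadjusted p under 0.05, 0 of them were higher and 33 lower (42.9%, against 10.3% of all genes). The carriers, with 1 rise, 1 fall and a median of -0.06, lay between the 2 sets. Whether the sets differ was not tested. Across the 40 carriers, log2 fold change and the gene length behind the FPKM values had a Spearman rho of 0.19, against 0.12 across all tested genes, both across genes in shared libraries.

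Of 16 tested genes for carrier import, 1 fell and 0 rose in edgeR, against 0.678% lower and 2.92% higher of all tested genes. At an unadjusted p under 0.05, 0 were higher and 10 lower, against 13.8% and 10.3% of all tested genes. By DESeq2, 0 were higher and 2 lower, where 761 and 346 of all tested genes were called. The list's median was -0.17, with 15 of 16 below 0. TIMM10, a small chaperone of the intermembrane space that escorts carriers, went from 37.5 ± 2.12 to 30.0 ± 2.48 CPM (log2 fold change -0.32, adjusted p = 0.0307). Its partner TIMM9 (-0.27, adjusted p = 0.0734) and another small chaperone, TIMM8B (-0.25, 0.0681), did not pass. Without PBS replicate 2, PBS replicate 3 or rhTR11B replicate 2, TIMM10 had adjusted p = 0.160, 0.180 and 0.0565, and under the 3 limma settings 0.0600 to 0.245.

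Among 20 other transporters of the mitochondrial membranes, 2 rose and 1 fell in edgeR, against 2.92% higher and 0.678% lower of all tested genes. Their median was -0.08, with 16 of 20 below 0. At an unadjusted p under 0.05, 2 were higher and 5 lower, against 13.8% and 10.3% of all tested genes. DESeq2 called 2 higher and 3 lower, and 761 and 346 of all tested genes. SLC8B1, which exchanges sodium for calcium, went from 49.8 ± 3.62 to 63.2 ± 8.59 CPM (log2 fold change 0.34, adjusted p = 0.0350), and the sideroflexin SFXN5 from 10.7 ± 0.619 to 13.8 ± 1.05 CPM (0.37, 0.0451). MPC2, a subunit of the mitochondrial pyruvate carrier, fell from 117 ± 2.99 to 98.3 ± 7.14 CPM (-0.25, 0.0369). With 1 library left out, SLC8B1 passed in 3 of 6 fits (adjusted p from 0.0129 to 0.189, over the threshold without PBS replicates 2 or 3 or rhTR11B replicate 3). MPC2 passed in 2 (without rhTR11B replicates 1 or 3) and SFXN5 in 1 (without rhTR11B replicate 1). Among genes with a mean of at least 5 CPM none of SLC8B1, MPC2 and SFXN5 passed (adjusted p = 0.0528, 0.0515 and 0.0536), nor did any of them under the 3 limma settings (0.0773 to 0.266). SFXN5 also missed the threshold with library size alone as the scaling (0.0540).

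ATP synthase, which uses the ADP and phosphate that carriers bring in, had 18 tested genes. In edgeR 1 fell and 0 rose, against 0.678% lower and 2.92% higher of all tested genes, and the median was -0.14. At an unadjusted p under 0.05, 0 were higher and 8 lower, against 13.8% and 10.3% of all tested genes. DESeq2 called 0 higher and 3 lower, and 761 and 346 of all tested genes. ATP5MK, a small membrane subunit, went from 43.7 ± 2.50 to 36.5 ± 2.27 CPM (log2 fold change -0.26, adjusted p = 0.0496), and passed in 1 of 6 fits with a library left out (without rhTR11B replicate 1; adjusted p up to 0.219). It did not pass at a mean of at least 5 CPM (0.0594) or under the 3 limma settings (0.0795 to 0.247). ATP5F1C (-0.19) and ATP5MG (-0.18) had adjusted p = 0.0742 and 0.0918. Of 15 partner enzymes of malate, aspartate, glutamate and citrate transport, edgeR called 0 and DESeq2 called 1, higher. At an unadjusted p under 0.05 by edgeR, 1 was higher and 2 were lower, against 13.8% and 10.3% of all tested genes. Their median was -0.06. Pyruvate carboxylase PC had 0.25 (adjusted p = 0.0583), MDH2 -0.15 (0.130) and GOT2 -0.14 (0.179).

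In the urea cycle, ornithine and proline list edgeR and DESeq2 called 0 of 8, with 2 higher and 1 lower at an unadjusted p under 0.05 and a median of 0.03. The matrix arginase ARG2 had 0.26 (adjusted p = 0.193) and ASS1, which makes argininosuccinate, 0.43 (0.203), at only 64 to 97 counts a library. The lower gene was PYCR1 (-0.13, adjusted p = 0.205). Of 8 regulators of mitochondrial genes both tools called 0, with 1 lower at an unadjusted p under 0.05, ESRRA, a nuclear receptor (-0.17, adjusted p = 0.179), and the list's median was -0.09. NRF1 had -0.16 (0.215) and the coactivator PPARGC1B 0.16 (0.252). Of 4 tested carrier relatives that bear other symbols both tools called 0, with 1 lower at an unadjusted p under 0.05. That was MTCH2, an insertase of the outer membrane (-0.19, adjusted p = 0.0916), and the uncoupling protein UCP2 had -0.03 (0.826). Over all tested genes, 13.8% were higher and 10.3% lower at an unadjusted p under 0.05 in edgeR.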

How the data were processed

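Read counts and FPKM values per gene symbol were deposited for 6 libraries. For the authors' deposited count and FPKM tables, the submitters' processing notes name GRCh38, HTSeq, HISAT, fastp, DESeq2 and R 3.2.0. Annotation and strandedness were not given in the sources used here, and a gene's reads may include those of its antisense partner. The deposited FPKM equalled count over length and library total for 100% of values (relative tolerance 0.001).

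From the counts, edgeR 4.0.16 in R 4.3.3 was run on all genes kept by filterByExpr (minimum count 10), with TMM scaling and group as the only term. The SE is the log2 fold change over the square root of F. The edgeR step was run on simulated counts with planted changes, with spread taken from the dispersion trend fitted to these data. The simulation held no shifts between libraries of a group, so it does not cover how the calls depend on single libraries. Alternatives were DESeq2 1.42.0, limma 3.58.1 on log2(FPKM + 1 or 0.1) keeping mean FPKM from 1 up or all genes, other scalings and filters, the replicate number as a block, and each library left out. The summed share was described without a p. Levels between genes are compared as FPKM. Shared windows and antisense overlaps come from GENCODE 29, coordinates and promoters from RefSeq GRCh38.p14, where 37 members matched. Protein sequences were not used here, and 1 member's own values are not reported here, although counts and medians include it.

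The members and lists were chosen with earlier results of these data known. Values by library were given for members with an unadjusted p under 0.05, the 6 with the highest FPKM and those in pairs, and up to 3 genes per list with the smallest p were named; other members were placed by level and fold change. Of the marker lists, AKR1B10, AKR1C1, ALDH1A1, ALDH3A1, COL1A2, PTPRC, CD3E and HBB were not analysed here. Nor were the regulator PPARGC1A, OTC of the urea cycle list and the carrier relative UCP1.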

Additional observations from a re-analysis of the deposited data

How the results depend on the processing

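Of all tested genes, edgeR called 396 higher and 92 lower. The counts were 761 and 346 with DESeq2, 205 and 26 at a mean of at least 5 CPM, 940 and 483 without a low-count filter, 62 and 21 with limma on log2(FPKM + 1), 64 and 22 on log2(FPKM + 0.1), and 0 and 0 on log2(FPKM + 1) without a filter, where 3073 genes had an unadjusted p under 0.05. With 1 library left out they ran from 9 to 903 higher and from 3 to 427 lower, lowest without PBS replicate 3 and highest without rhTR11B replicate 1.

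Of the carriers, 1 was called higher and 1 lower. Called lower were 3 with DESeq2, 2 without a low-count filter, 0 at a mean of at least 5 CPM and 0 under each limma setting. Called higher were 2 without a low-count filter and 0 with limma on log2(FPKM + 1) without a filter. With 1 library left out, 0 to 2 were higher and 0 to 2 lower. The cause was not tested. The relative difference of the summed share was -8.29% as summed FPKM, -4.55% without the mitochondrially encoded genes in the total, and -7.50% to -4.49% with 1 library left out, smallest without rhTR11B replicate 3. Without SLC25A3 and SLC25A5 it was -2.32%.

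Libraries with the same replicate number did not deviate together (correlations of -0.10, 0.05 and -0.01), so the numbers were not taken to pair them. With the replicate block 774 genes were higher and 252 lower, and 2 carriers higher (SLC25A37 and SLC25A29) and 2 lower (SLC25A33 and SLC25A4).

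Values near 0 changed sign with 1 library left out. The log2 fold change ran from -0.0772 to 0.0123 for SLC25A23, from -0.072 to 0.1181 for SLC25A25 and from -0.0288 to 0.1225 for SLC25A40. The difference in pair share, in percentage points, ran from -0.1744 to 0.4298 for SLC25A2, from -0.03944 to 0.8144 for SLC25A40 and from -0.3884 to 0.7592 for SLC25A11. Depth limits SLC25A34 and SLC25A53, with 10 to 30 counts a library.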
